A study of Mus musculus with 17 samples.

Results

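Mouse Zfyve9, the gene for SARA, and its homologue Zfyve16, the gene for endofin, were followed by cell type in 17 single-cell RNA sequencing libraries of sorted mouse skin and kidney cells. The 2 genes were chosen by name and are 2 of the 30406 genes shared by Ensembl identifier among all feature lists. The mice were 8 weeks old. All of them carried PDGFRb-Cre, a constitutive Cre line, and the Z/EG reporter, which makes GFP once Cre has acted, and the cells were sorted as PDGFR-β+GFP+. The study's methods describe this sort for back skin. SARATg mice also carried a human ZFYVE9 cDNA in the Rosa26 locus, transcribed from the CAG promoter after Cre removes a stop cassette, whereas their SARAWT littermates did not. Inflammatory cells also use this promoter in the embryo, so Cre marks leukocytes as well as pericytes in these mice.

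Skin was represented by 8 libraries, 3 of SARAWT mice with PBS, 3 of SARAWT mice with bleomycin, and 1 each of SARATg mice with PBS and with bleomycin. Bleomycin, a DNA-breaking drug used to model scleroderma, was given under the skin at 20 mg/kg, 3 times a week for 2 weeks according to the sample labels, while the study's methods state daily injections. Kidney was represented by 9 libraries, 3 of SARAWT mice with vehicle, 3 of SARAWT mice with aristolochic acid, 2 of SARATg mice with vehicle and 1 of SARATg mice with aristolochic acid. Aristolochic acid, a plant toxin that damages the proximal tubule, was injected into the peritoneum at 5 mg/kg, 3 times a week for 3 weeks. How many mice a library holds is not stated, so all p-values measure only the spread between libraries, which may be technical.

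SARA (Smad anchor for receptor activation) is a protein of early endosomes. Its FYVE domain binds the lipid phosphatidylinositol 3-phosphate. SARA was first described as an adaptor whose Smad-binding domain holds Smad2 and Smad3 near the activated TGF-β receptor, which phosphorylates them. The study states that later work, in part by its own authors, found SARA dispensable for this signaling. Endofin has the same domain layout, and is known for work with Smad4 and with BMP receptor Smads and for recruiting TOM1 to endosomes. Loss of SARA has been linked to the loss of epithelial character in kidney tubule cells, and TGF-β signaling drives the myofibroblasts of fibrotic skin and kidney.

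On GRCm38 with GENCODE vM21, Zfyve9 (ENSMUSG00000034557) lies on the minus strand of chromosome 4 from 108637466 to 108780798. Its longest coding transcript has 19 exons and codes for 1397 residues. Zfyve16 (ENSMUSG00000021706) lies on the minus strand of chromosome 13 from 92487108 to 92530868, and its only coding transcript has 18 exons and codes for 1528 residues. Zfyve9 overlaps 2 annotated genes of the opposite strand, the protein-coding 3110021N24Rik and the pseudogene Gm12741, while Zfyve16 overlaps none. Whether counting used the strand is not given in the sources used here. Because the members are homologues, they were searched for runs of bases that a read could match in both. The longest run shared by the coding sequences was 17 bases. Whole coding transcripts, untranslated ends included, shared no word of 20 bases or longer, so reads of that length or longer from one have no exact match in the other. The sequences around this run follow, from the GENCODE vM21 transcripts, with the shared run in capitals. The first is from coding base 3241 to 3287 of Zfyve9 and the second from coding base 3646 to 3692 of Zfyve16.
Zfyve9: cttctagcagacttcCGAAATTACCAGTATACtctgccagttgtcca
Zfyve16: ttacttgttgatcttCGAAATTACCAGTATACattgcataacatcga
The transgene is the human cDNA. A separate human ZFYVE9 entry stood in the feature lists of 4 skin libraries (SARAWT PBS 1 and 2 and SARAWT bleomycin 1 and 2) and in none of the other 13 libraries, so how human transcripts were assigned there was not tested.

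Each deposited value is the number of unique molecular identifiers (UMIs) of a gene under one cell barcode. Totals per library ranged from 3355217 to 69765525 UMIs in skin and from 28660151 to 137093834 UMIs in kidney. Of 28978 skin cells and 58140 kidney cells kept, 23753 and 52388 were assigned to a class by marker genes, and class names below stand for that gate. For each library and class the UMIs were added up and a gene's level was given as its UMIs per 1000000 UMIs (CPM). A library entered with at least 10 cells of the class. Pdgfrb, the gene the sort is named for, had a median of 484 CPM over libraries in skin mural cells, 101 CPM in fibroblast-like cells, 54.3 CPM in mast cells and 238 CPM in the kidney fibroblast and mural class. In each of the other 27 classes its median was at most 15.1 CPM, and it was 0 CPM in all kidney distal tubule, intercalated and natural killer (NK) cell sums. In the kidney, the fibroblast and mural class held 103 cells, against 16331 T cells and 14678 convoluted proximal tubule cells. The 4 skin libraries that list the human entry also shared 7.38% to 55.5% of their barcodes with another skin library, the most in SARAWT PBS 2, whereas the other skin libraries shared at most 0.824%.

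Lymphocytes (T, B, NK and innate lymphoid cells together) gave the clearest view of Zfyve9 against the labels, and were chosen for this after their values were seen. In kidney lymphocytes Zfyve9 had 1.39, 0.587 and 0.220 CPM in SARAWT vehicle 1 to 3, and 1.25 and 1.66 CPM in SARAWT aristolochic acid 2 and 3. It had 81.8 CPM (95% exact Poisson interval 75.6 to 88.4) in SARATg vehicle 1 and 59.9 CPM (53.9 to 66.3) in SARATg vehicle 2. The intervals cover counting error only. Lymphocytes of labelled SARATg vehicle libraries thus carried Zfyve9 UMIs and those of the 5 SARAWT libraries above hardly did. Both libraries numbered 1 of the aristolochic acid groups went against this: the library labelled SARAWT aristolochic acid 1 had 58.9 CPM (55.4 to 62.6), and the library labelled SARATg aristolochic acid 1 had 1.28 CPM (0.681 to 2.19). Between 15.6% and 24.0% of lymphocytes held a Zfyve9 UMI in both SARATg vehicle libraries and the library labelled SARAWT aristolochic acid 1, against at most 0.724% in the other 6.

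In skin lymphocytes Zfyve9 had 428 CPM in SARATg PBS 1 and 377 CPM in SARATg bleomycin 1. In SARAWT bleomycin 1 to 3 it had 0, 0.463 and 0 CPM, and in SARAWT PBS 2, with 8 lymphocytes, 0 CPM. The library labelled SARAWT PBS 3 had 612 CPM, above both SARATg libraries, and the library labelled SARAWT PBS 1 had 13.1 CPM. The human entry had 829 CPM in lymphocytes of SARAWT PBS 1, 293 CPM in SARAWT PBS 2, 191 CPM in SARAWT bleomycin 1 and 247 CPM in SARAWT bleomycin 2. The libraries that stood farthest from their label, skin SARAWT PBS 1 and 3 and kidney SARAWT and SARATg aristolochic acid 1, are called by the label below, and results are given with and without these 4. They were picked after the values were seen and no threshold was set. The human entry in SARAWT PBS 2 and SARAWT bleomycin 1 and 2 also goes against a SARAWT label, so skin values without SARAWT PBS 1 and 3 still include 3 libraries that carry it.

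**Figure D1:**
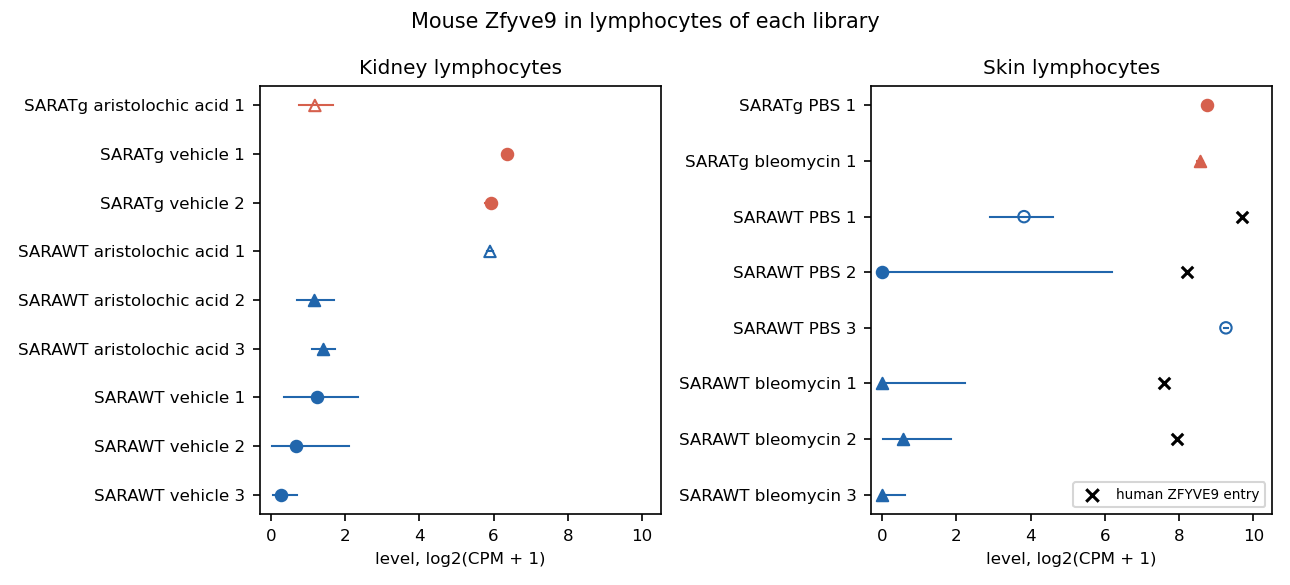
Zfyve9 in lymphocytes of each of the 17 libraries (x axis, log2(CPM + 1)), kidney and skin, with 95% exact Poisson intervals as lines. Blue marks SARAWT and red SARATg labels, circles PBS or vehicle and triangles bleomycin or aristolochic acid, open symbols the 4 libraries that stood farthest from their label, and black crosses the human entry in the 4 libraries that list it. Kidney libraries fall into 3 at 58.9 to 81.8 CPM and 6 at 0.220 to 1.66 CPM.

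The first question was which kidney cell types carry Zfyve9 in SARAWT mice. Without the library labelled SARAWT aristolochic acid 1, intercalated cells, the distal convoluted tubule and endothelium had the highest means. The mean was 48.1 CPM ± 21.9 (SD, n = 4 libraries) in intercalated cells of the collecting duct. It was 43.1 CPM ± 17.1 (n = 5) in the distal convoluted tubule and 40.7 CPM ± 20.6 (n = 4) in endothelial cells. Each further class down to the straight proximal tubule lay within 1 SD of the class before. Macrophages had 33.7 CPM ± 22.2, the thick ascending limb 33.0 CPM ± 17.3 and neutrophils 26.4 CPM ± 18.7 (n = 5 each). The convoluted proximal tubule had 23.5 CPM ± 5.50 and the straight segment 18.8 CPM ± 8.40 (n = 5 each). Then came a class of epithelium with less, the principal cells of the collecting duct, at 8.11 CPM ± 7.09 (n = 3).

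Lymphoid classes and dendritic cells stood at the bottom of these libraries. The library left out was set aside for Zfyve9 in its lymphocytes, so their low levels in the rest are a description that this choice helped to fix. B cells had 2.33 CPM ± 2.42 and T cells 0.805 CPM ± 0.468 (n = 5 each), and dendritic cells 1.99 CPM ± 1.60 (n = 4). NK cells had 0 UMIs in all 5 libraries. Within the leukocytes of the same libraries, macrophages lay above T cells in every library, at 67.3, 42.9 and 12.4 CPM in SARAWT vehicle 1 to 3, against 0.978, 0.769 and 0.249 CPM in T cells. Leukocyte classes of 1 library thus held different levels. With all 6 SARAWT libraries the order changed, and neutrophils came first at 133 CPM ± 261 (n = 6), followed by endothelial cells at 110 CPM ± 157 and intercalated cells at 77.6 CPM ± 68.7 (n = 5 each). T cells were last at 9.34 CPM ± 20.9 and NK cells had 29.5 CPM ± 72.3 (n = 6 each), so that 1 library set the SD of these classes.

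Each class was compared with the median of the other classes of the same library over all 6 SARAWT libraries, on log2(CPM + 1) with a two-sided exact permutation test that flips signs (9 tests, smallest possible p 0.0312). The distal convoluted tubule (mean difference 0.91) and the thick ascending limb (0.56) were higher in 6 of 6 libraries. T cells (-3.44), NK cells (-3.83) and B cells (-2.88) were lower in 6 of 6. Each of these 5 had an adjusted p of 0.0563, just over the 0.05 threshold. In the order over all 6 libraries, 5 pairs of neighbours had the libraries needed. The straight proximal tubule lay above NK cells, its neighbour there, in 6 of 6 (log2 difference 3.50, adjusted p 0.156). With 5 tests, 1 pair alone cannot have a lower adjusted p, so these tests do not show that neighbours were alike. The edgeR quasi-likelihood F test for any difference between kidney classes, with library as a block, took all 9 libraries, the SARATg libraries included. In it Zfyve9 had an adjusted p of 6.65e-18, where 99.2% of the genes tested passed. Over the 6 SARAWT libraries alone the adjusted p was 3.28e-12, where 11785 of 12038 genes passed.

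The second comparison asked which kidney classes carried more Zfyve9 in SARATg vehicle libraries than in SARAWT vehicle libraries. In 13 of 13 classes both SARATg libraries lay above all SARAWT libraries. By class, 6.26% to 38.2% of genes with at least 10 CPM did the same, and in the summed compartments 5.92% of epithelial, 8.76% of endothelial and 13.6% of leukocyte genes. With 2 libraries against 3, an exact one-sided test cannot go below 0.1, and the bound is higher in intercalated cells, which had 2 libraries of each genotype.

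The ratio of means was largest in lymphocytes. T cells had 36.2 and 29.4 CPM in SARATg vehicle 1 and 2, which was 49.3-fold the SARAWT mean, itself from 5 UMIs over 3 libraries. NK cells had 170 and 130 CPM (97 and 74 UMIs) against 0 UMIs in all 3 SARAWT libraries, at least 32.4-fold higher with a floor of 3 UMIs over the SARAWT group (4.62 CPM). In B cells 405 and 219 UMIs stood against 2, 0 and 0. Dendritic cells were 29.4-fold higher and collecting duct principal cells 21.5-fold, at 159 and 190 CPM against 0, 13.2 and 11.2 CPM. The SARAWT vehicle libraries held 11 UMIs in dendritic cells and 14 in principal cells, so these ratios are rough. Neutrophils had the highest level of any class in both SARATg libraries, 729 and 366 CPM, against 33.8, 34.9 and 15.7 CPM in SARAWT, a ratio of 19.5.

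The ratio was smaller in the remaining classes. It was 4.11 in the thick ascending limb, 4.10 in endothelial cells, 3.70 in macrophages, 3.63 in the distal convoluted tubule and 2.75 in intercalated cells. In the convoluted proximal tubule it was 3.38, at 106 and 69.2 CPM against 28.1, 30.8 and 18.7 CPM. In the straight part the ratio was 2.44, at 60.5 and 45.6 CPM against 23.8, 28.1 and 13.3 CPM. As differences rather than ratios, the SARATg mean exceeded the SARAWT mean by 32.1 CPM in T cells, 31.3 CPM in the straight proximal tubule, 61.6 CPM in the convoluted part, 111 CPM in macrophages and 519 CPM in neutrophils. The fibroblast and mural class reached 10 cells in 1 SARATg and 1 SARAWT vehicle library, with 213 CPM (68 UMIs) and 41.1 CPM (4 UMIs).

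**Figure D2:**
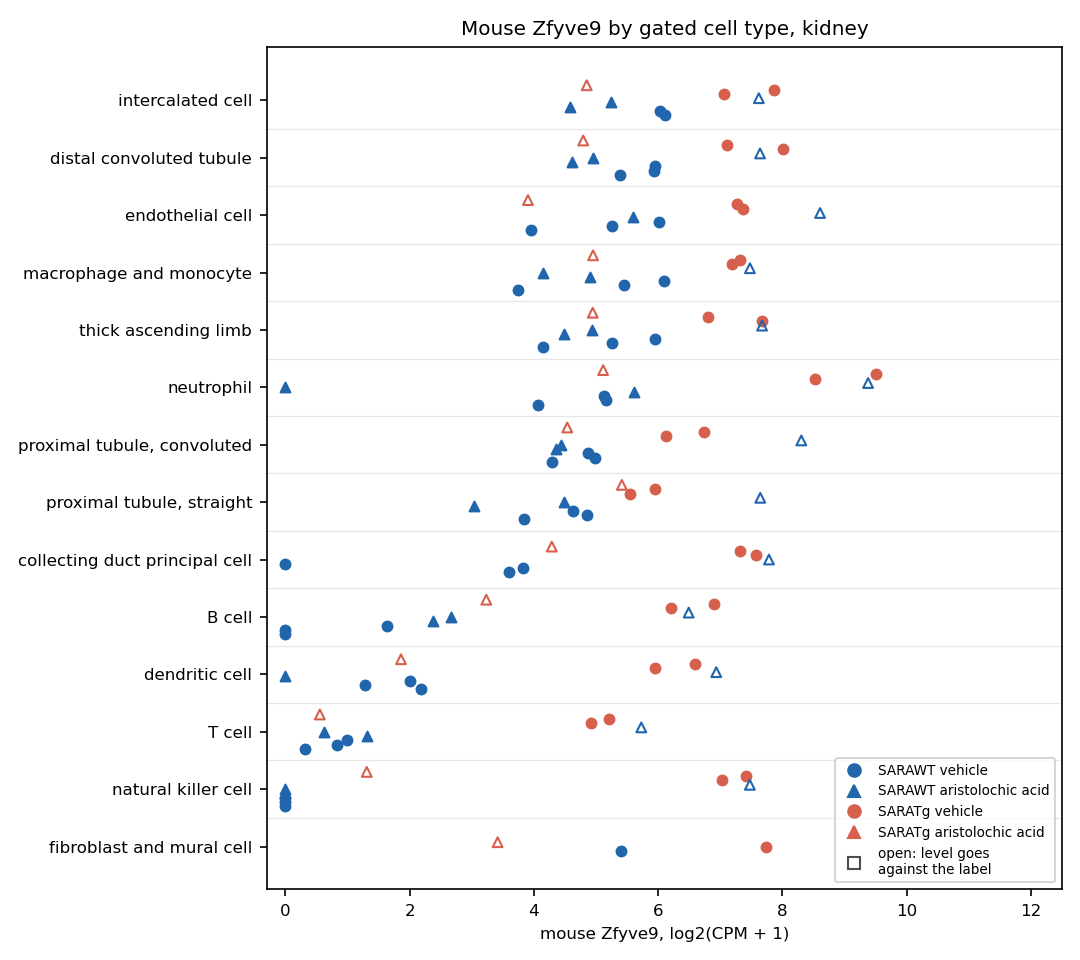
Zfyve9 by kidney class (y axis) in each library (x axis, log2(CPM + 1)). Blue marks SARAWT and red SARATg labels, circles vehicle and triangles aristolochic acid, and open triangles the 2 libraries whose level goes against the label. In every class the red circles lie to the right of the blue circles, the open blue triangle lies at 52.0 to 665 CPM, and the open red triangle at 0.468 to 41.7 CPM.

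In edgeR fits over compartments with all 9 libraries (8 in endothelium, where SARAWT aristolochic acid 3 had 1 cell), the Zfyve9 difference of SARATg from SARAWT vehicle libraries was 2.56 (log2, SE 1.22, adjusted p 0.658) in leukocytes. The difference was 1.75 (SE 1.0, adjusted p 0.919) in epithelium and 2.15 (SE 0.65, adjusted p 1.0) in endothelium. None of these passed, and few genes did: 0% in epithelium (787 genes at an unadjusted p under 0.05, and 19 past the threshold by DESeq2), 0% in leukocytes (1079 and 36) and 0.0294% in endothelium. Without both libraries labelled aristolochic acid 1, the differences were 2.55 (SE 0.59), 1.77 (SE 0.29) and 2.17 (SE 0.46), of the same size with a smaller SE, and still did not pass. Both libraries had been set aside for their Zfyve9 level, which enters these fits, so the smaller SE is only a description. With no filter on low counts and the same 8 libraries, the endothelial difference was 2.21 and passed (adjusted p 7.57e-07).

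Whether the genotype difference was the same in every class was tested within libraries, by edgeR with library as a block. Over all 9 libraries Zfyve9 had an adjusted p of 0.878, where 0.128% of genes passed. Without the library labelled SARAWT aristolochic acid 1 it was 0.00912, and without both libraries labelled aristolochic acid 1 it was 2.02e-06. Leaving out each library other than SARAWT aristolochic acid 1 in turn gave 0.134 to 1. Both libraries had been set aside for their Zfyve9 level in lymphocytes, which enters this test, so the values without them are a description and no evidence of a difference between classes.

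After aristolochic acid, only 1 library was labelled SARATg. In convoluted proximal tubule, the segment that takes up the toxin, Zfyve9 had 315, 20.6 and 19.6 CPM in SARAWT aristolochic acid 1 to 3 and 22.2 CPM in the library labelled SARATg. The SARAWT aristolochic acid libraries 2 and 3 lay within the SARAWT vehicle range of 18.7 to 30.8 CPM. Macrophages had 177, 16.8 and 29.0 CPM in SARAWT and 29.95 CPM in the library labelled SARATg, and neutrophils had 665, 0 and 47.7 CPM and 33.6 CPM. The library labelled SARATg was below each SARAWT aristolochic acid library in T cells, at 0.468 CPM against 52.0, 0.539 and 1.49 CPM. In endothelial cells it had 14.0 CPM against 389 and 47.1 CPM in SARAWT aristolochic acid 1 and 2. Few UMIs stand behind these values: 4 in T cells and 13 in endothelial cells of the library labelled SARATg, and 3 in endothelial cells of SARAWT aristolochic acid 2. The order against SARAWT aristolochic acid 2 is therefore not settled in either class. Aristolochic acid against vehicle in SARAWT gave a Zfyve9 difference of 1.77 (log2, SE 0.94, adjusted p 0.462) in epithelium and 1.29 (SE 1.11, adjusted p 0.660) in leukocytes. Without the library labelled SARAWT aristolochic acid 1 both turned, to -0.53 (adjusted p 0.668) and -1.33 (adjusted p 0.397). SARATg against SARAWT after aristolochic acid gave -2.24 (SE 1.49) in epithelium and -1.47 (SE 1.66) in leukocytes (adjusted p 1 in both), and 0.075 and 1.15 without that library. With 1 library labelled SARATg, these fits take its spread from the other kidney groups, so they do not show that the labelled groups were alike. In each of these 4 edgeR fits 0% of genes passed, with 372 to 1695 genes at an unadjusted p under 0.05 and 5 to 184 past the threshold by DESeq2.

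In skin, keratinocytes had the highest mean of Zfyve9 in SARAWT libraries once those labelled SARAWT PBS 1 and 3 were left out. Both were set aside after their lymphocyte values were seen, so the low T and NK cell levels in the rest are a description that this choice helped to fix. Keratinocytes had 50.7 CPM ± 20.8, endothelial cells 29.9 CPM ± 18.1 and fibroblast-like cells 18.9 CPM ± 6.35 (SD, n = 4 libraries each). The endothelial values rest on 3 UMIs in SARAWT PBS 2 and on 1, 3 and 3 UMIs in SARAWT bleomycin 1 to 3. Schwann cells had 24.8 CPM ± 4.83 and muscle satellite cells 21.6 CPM ± 4.21 (n = 3 each). The lower part of the order began with muscle fibres. These had 12.7 CPM ± 8.62, macrophages 7.47 CPM ± 1.55 and dendritic cells 1.81 CPM ± 1.22 (n = 4 each). Mural cells had 4.45 CPM ± 7.71 (13.3, 0 and 0 CPM, n = 3). Their 13.3 CPM was 1 UMI, so whether they stood above or below macrophages is not settled. Skin macrophages thus lay below fibroblast-like cells in each of these 4 libraries, at 5.86 against 20.8 CPM in SARAWT PBS 2 and 7.05 against 12.3, 7.38 against 26.9 and 9.58 against 15.8 CPM in SARAWT bleomycin 1 to 3. αβ T cells and NK cells had 0 UMIs in the SARAWT bleomycin libraries, and γδ T cells had 1 UMI in SARAWT bleomycin 2. SARAWT bleomycin 3, the only one of the 4 whose feature list lacks the human entry, had 28.5 CPM in Schwann cells, 26.5 CPM in muscle satellite cells, 20.8 CPM in keratinocytes and 15.6 CPM in endothelial cells, so keratinocytes did not come first there. With all 6 SARAWT libraries neutrophils came first, at 463 CPM ± 1121 (n = 6), then muscle satellite cells at 267 CPM ± 506 (n = 5). Keratinocytes, at 125 CPM ± 185 (n = 6), came after 10 other classes. The lymphoid classes were not the lowest then, with 172 CPM ± 376 in γδ T cells (n = 5), 154 CPM ± 307 in NK cells (n = 4) and 94.6 CPM ± 208 in αβ T cells (n = 5), against 88.8 CPM ± 209 in dendritic cells and 79.3 CPM ± 148 in muscle fibres (n = 6 each).

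Over all 6 SARAWT skin libraries, endothelial cells lay above the median of the other classes in 6 of 6 (log2 difference 2.07) and dendritic cells below it in 6 of 6 (-1.58), each with an adjusted p of 0.109 over 7 sign-flip tests, each of which has a smallest possible p of 0.0312. Fibroblast-like cells lay above macrophages in 6 of 6 (0.96, adjusted p 0.0938, the lowest that 1 of 3 neighbour tests can reach alone). The edgeR F test over skin classes took all 8 libraries, both SARATg libraries included. In it Zfyve9 had an adjusted p of 1.1e-07, where 99.6% of genes passed. It was not run over the 6 SARAWT libraries alone.

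Zfyve9 in both SARATg skin libraries was above SARAWT PBS 2 and SARAWT bleomycin 1 to 3 in every class they shared. No test was made with 1 library per group, and the share of all genes that did the same was not counted. SARAWT PBS 2 and SARAWT bleomycin 1 and 2 list the human entry, whereas both SARATg libraries and SARAWT bleomycin 3 lack it. This order of Zfyve9 did not hold with SARAWT PBS 3. Neutrophils were highest, at 1625 CPM with PBS and 1422 CPM with bleomycin, against 0, 0 and 9.12 CPM in SARAWT bleomycin 1 to 3. The 9.12 CPM were 31 UMIs held by 0.482% of 1244 neutrophils. SARATg PBS 1 was above SARATg bleomycin 1 in stromal and vascular classes, at 742 and 235 CPM in mural cells, 713 and 208 CPM in endothelial cells and 325 and 113 CPM in fibroblast-like cells. It was also above it in NK cells (414 and 149 CPM), macrophages (299 and 184 CPM), ILC2, the group 2 innate lymphoid cells (524 and 351 CPM), γδ T cells (676 and 558 CPM), mast cells (599 and 551 CPM) and dendritic cells (236 and 217 CPM). αβ T cells had 282 and 367 CPM, the other way round. The library labelled SARAWT PBS 3 had 2750 CPM in neutrophils, 1105 CPM in mural cells and 582 CPM in fibroblast-like cells. The library labelled SARAWT PBS 1 had 16.3, 53.6 and 36.4 CPM in these classes. SARAWT PBS 3 was above both SARATg libraries in 14 of 15 classes, all but muscle satellite cells. The share of all genes that did so was not counted.

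**Figure D3:**
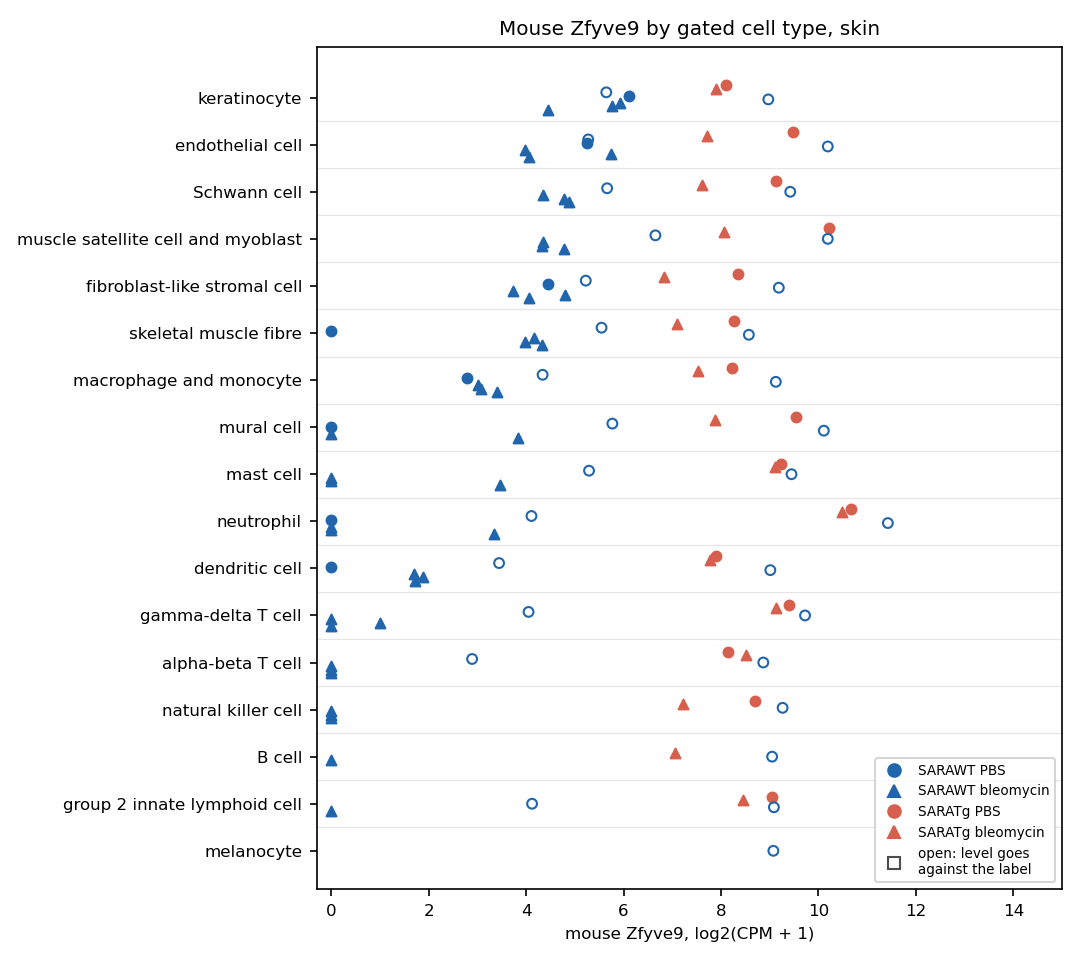
Zfyve9 by skin class (y axis) in each library (x axis, log2(CPM + 1)). Blue marks SARAWT and red SARATg labels, circles PBS and triangles bleomycin, and open circles the libraries labelled SARAWT PBS 1 and 3. The red symbols and 1 open circle (SARAWT PBS 3) lie at 113 to 2750 CPM in every class, and the SARAWT bleomycin triangles lie at 0 to 60.0 CPM.

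The human entry, in the 4 skin libraries that list it, was found in every class with at least 10 cells. In the library labelled SARAWT PBS 1 it ran from 504 CPM in muscle fibres to 4896 CPM in neutrophils, with 1904 CPM in muscle satellite cells, 1791 CPM in mural cells, 1622 CPM in endothelial cells and 657 CPM in fibroblast-like cells. Neutrophils were thus the highest class for the human entry in this library and for mouse Zfyve9 in SARATg PBS 1, SARATg bleomycin 1 and SARAWT PBS 3. In SARAWT PBS 2 it ran from 68.5 CPM in keratinocytes to 748 CPM in neutrophils. In SARAWT bleomycin 1 the range was 31.4 to 433 CPM, and in SARAWT bleomycin 2 it was 49.2 to 325 CPM, highest in γδ T cells. Over all kept cells, leaving out cells whose barcode occurs in another skin library changed the human entry from 838 to 869 CPM in SARAWT PBS 1 and from 187 to 292 CPM in SARAWT PBS 2. In SARAWT bleomycin 1 it went from 86.6 to 97.0 CPM and in SARAWT bleomycin 2 from 112 to 120 CPM. The entry was therefore as high without the shared barcodes, and what part free RNA has in these UMIs was not tested.

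**Figure D4:**
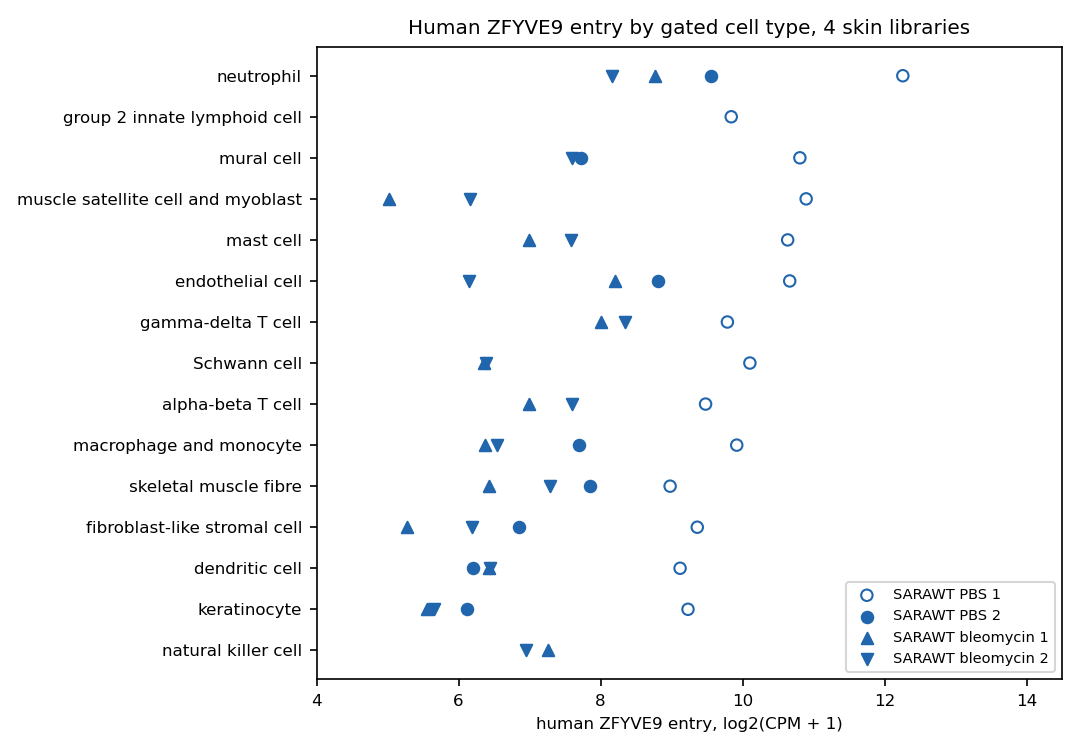
The human ZFYVE9 entry by skin class (y axis) in the 4 libraries that list it (x axis, log2(CPM + 1)), all labelled SARAWT, with circles for PBS, triangles for bleomycin and an open circle for SARAWT PBS 1. SARAWT PBS 1 lies at 504 to 4896 CPM and above the other 3 libraries in every class it shares with them.

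Bleomycin against PBS in SARAWT skin gave a Zfyve9 difference of -3.75 (log2, SE 1.25, adjusted p 0.114) in the stromal compartment, fibroblast-like and mural cells together, and -5.22 (SE 1.65, adjusted p 0.448) in leukocytes. Neither passed, where 4.4% of stromal genes and 0% of leukocyte genes did (1176 leukocyte genes at an unadjusted p under 0.05, 194 past the threshold by DESeq2). The stromal sums had 36.6, 19.2 and 613 CPM with PBS and 12.2, 26.1 and 15.7 CPM with bleomycin, so that the library labelled SARAWT PBS 3 alone set the mean. SARAWT PBS 3 and SARAWT bleomycin 3 lack the human entry, which had 674 CPM in the stromal sum of SARAWT PBS 1. Whether Zfyve9 was counted alike under both feature lists was not tested. Without SARAWT PBS 3 the differences were -0.65 (adjusted p 0.359) and -0.91 (adjusted p 0.296). Without both SARAWT PBS 1 and 3 they were -0.10 and 0.34. Blocking on the replicate number gave -2.28 (adjusted p 0.205) in stroma, where 1382 genes passed instead of 476, and -2.81 (adjusted p 0.341) in leukocytes, where 33 passed instead of 0.

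CPM is a share of a cell's RNA, so UMIs per cell were also set side by side. In SARATg PBS 1, Zfyve9 had 6.10 UMIs per fibroblast-like cell and 3.77 per neutrophil, while a neutrophil held 2319 UMIs in all and a fibroblast-like cell 18795. Per cell, neutrophils therefore did not have the most Zfyve9 UMIs there, although they had the highest CPM. In the library labelled SARAWT PBS 3 there were 9.03 UMIs per keratinocyte, 9.0 per endothelial cell, 8.98 per neutrophil, 8.56 per fibroblast-like cell, 8.32 per dendritic cell and 7.49 per macrophage. γδ T cells (6.09), Schwann cells (5.50), B cells (5.50), NK cells (4.07), ILC2 (4.04) and αβ T cells (3.40) had fewer, and mast cells (1.23) and muscle fibres (0.866) fewer still. In SARATg vehicle 1 and 2 of the kidney there were 2.33 and 1.31 UMIs per intercalated cell, 1.67 and 1.83 per principal cell, 2.15 and 1.05 per neutrophil, 1.27 and 0.827 per convoluted proximal tubule cell and 0.155 and 0.0994 per T cell. After thinning each cell to 1000 UMIs, 55.1% and 32.4% of neutrophils and 3.63% and 2.97% of T cells held a Zfyve9 UMI in these libraries (73.6% and 52.4%, and 12.8% and 9.03%, before thinning), against 0.0132% to 0.136% of T cells and 0.605% to 1.90% of neutrophils in the SARAWT vehicle libraries. Of the T cells and neutrophils of these 5 libraries, at most 20 per class and library were left out as too shallow. What part free RNA has in these shares was not tested.

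Zfyve16 was found in every class of both tissues with 2 or more libraries, and in skin a lymphoid class had the most. ILC2, which make type 2 cytokines in skin, had 141 and 169 CPM in the libraries labelled SARAWT PBS 1 and 3, 86.7 CPM in SARAWT bleomycin 3, and 140 and 70.3 CPM in SARATg PBS 1 and SARATg bleomycin 1. They were the highest class in 5 of 5 libraries, by 2.64 (log2, SD 0.57) over the median of the others, although 5 libraries cannot give a p below 0.0625. Without SARAWT PBS 1 and 3 their mean was 99.03 CPM. Over all libraries mural cells had the next highest mean, 35.5 CPM ± 19.7 (SD, n = 7 libraries). B cells had a mean of 29.3 CPM (n = 3, up to 61.8 CPM). The means were 17.8 CPM in αβ T cells, 12.8 CPM in γδ T cells and 9.31 CPM in NK cells. Fibroblast-like cells had 23.6 CPM ± 2.92 and macrophages 19.1 CPM ± 2.32 (SD, n = 8 libraries each). Fibroblast-like cells were above the median of the other classes in 8 of 8 libraries (0.50). Muscle fibres, at a mean of 4.88 CPM, were below it in 8 of 8 (-2.18). Both had an adjusted p of 0.0547, and none of the 14 classes tested passed in skin.

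In the kidney, the fibroblast and mural class had the highest mean of Zfyve16, 46.0 CPM ± 26.3 (SD, n = 3 libraries, too few to test). Zfyve16 was higher in tubule epithelium than in lymphocytes. The thick ascending limb had 45.4 CPM ± 13.7 and the convoluted proximal tubule 44.1 CPM ± 9.10, against 13.0 CPM ± 4.21 in T cells and 8.80 CPM ± 4.15 in B cells (SD, n = 9 libraries each). In all, 8 classes passed the sign-flip test against the median of the others. The thick ascending limb (1.10), convoluted proximal tubule (1.09), distal convoluted tubule (0.80) and intercalated cells (0.77) were higher, and dendritic cells (-0.48), T cells (-0.75), NK cells (-1.28) and B cells (-1.33) were lower. Without the libraries labelled aristolochic acid 1, 4 of these passed, each with an adjusted p of 0.0469: the thick ascending limb, convoluted proximal tubule, T cells and B cells. No pair of neighbours in the order passed (lowest adjusted p 0.469 over 12 pairs in kidney and 0.188 over 12 pairs in skin). In the edgeR F test Zfyve16 had an adjusted p of 1.9e-18 in kidney and 1.82e-23 in skin, where 99.2% and 99.6% of genes passed.

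Kidney endothelium, among the classes with the most Zfyve9, had a mean of 24.8 CPM of Zfyve16, below the 40.3 to 45.4 CPM of the 4 higher tubule classes. Values are compared here between classes of 1 gene and not between the genes, and the difference in rank was not tested.

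Zfyve16 levels of both genotypes overlapped in most kidney classes. Between SARATg and SARAWT vehicle kidneys, both SARATg libraries lay above all SARAWT libraries in 1 of 13 classes, NK cells, on 14 and 6 UMIs. They lay below in 3 of 13 classes, where 3.64% to 20.8% of genes did so by class and 12% of epithelial, 9.54% of endothelial and 13.3% of leukocyte genes in the compartments. In the convoluted proximal tubule Zfyve16 had 33.6 and 27.9 CPM in SARATg against 53.0, 58.0 and 47.6 CPM in SARAWT. The other 2 classes rested on few UMIs, the distal convoluted tubule on 1 and 5 UMIs in SARATg and intercalated cells on 6 and 9. In the compartment fits the Zfyve16 difference was -0.70 (log2, SE 0.23) in epithelium, -0.22 (SE 0.36) in leukocytes and 0.03 (SE 0.58) in endothelium, and none passed. The test of a genotype difference between classes gave an adjusted p of 0.972.

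After aristolochic acid, the Zfyve16 difference from vehicle in SARAWT kidneys was -0.43 (log2, SE 0.20, adjusted p 0.445) in epithelium and -0.57 (SE 0.32, adjusted p 0.535) in leukocytes. After bleomycin it was 0.12 (SE 0.22) in skin stroma and -0.20 (SE 0.22) in leukocytes. None of these 4 differences passed. SARATg against SARAWT after aristolochic acid gave -0.18 (SE 0.29) and 0.14 (SE 0.44), where the SE comes from the other kidney groups, since 1 library was labelled SARATg. In the library labelled SARAWT PBS 3 and in SARATg PBS 1, where Zfyve9 was high, fibroblast-like cells had 24.3 and 22.1 CPM of Zfyve16, within the 19.5 to 28.8 CPM of the other 6 libraries.

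**Figure D5:**
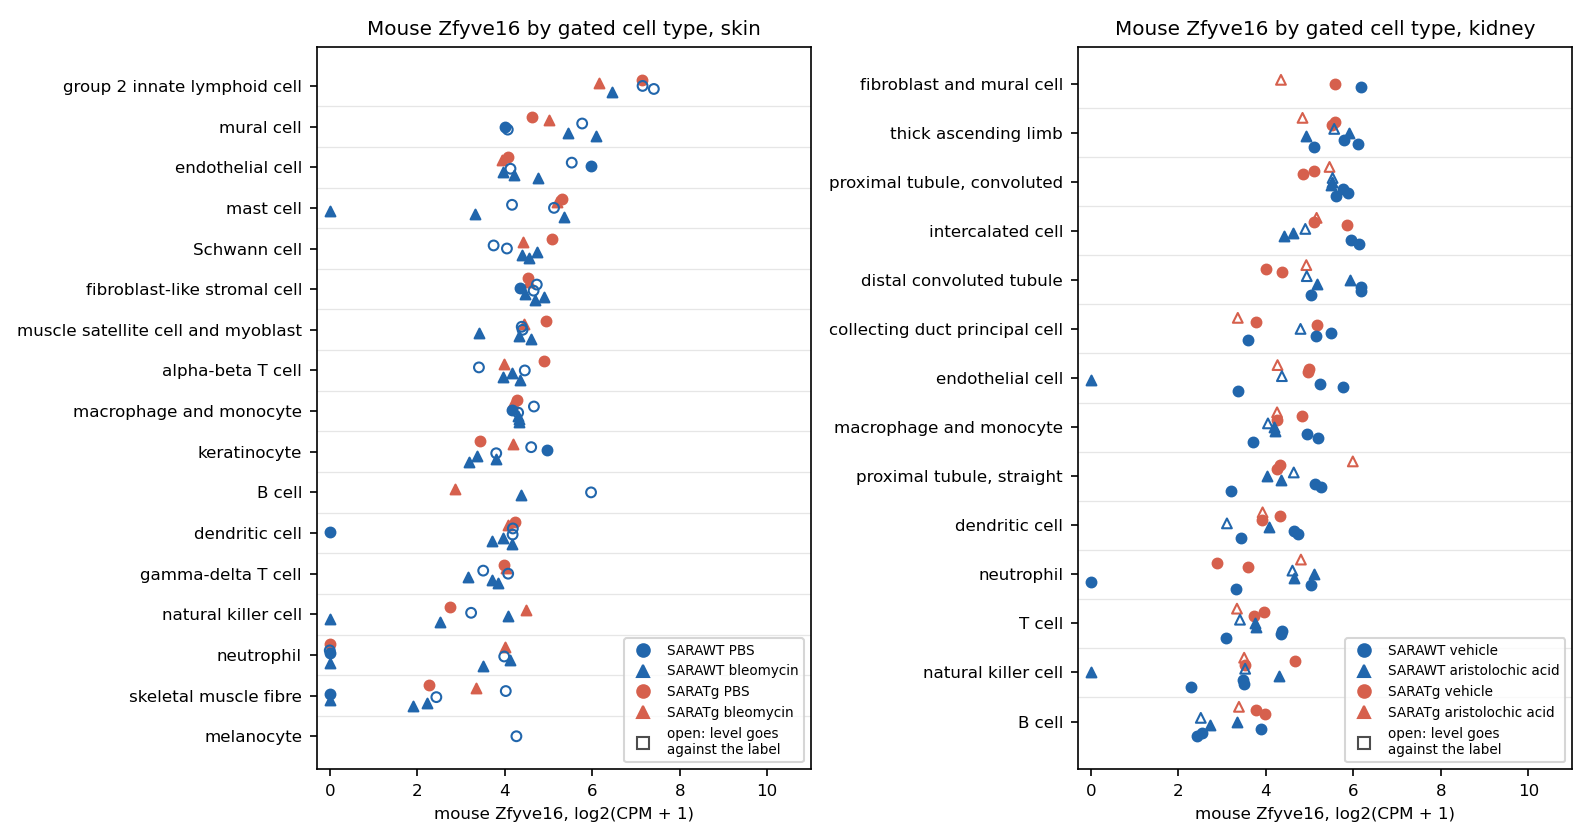
Zfyve16 by kidney and skin class (y axes) in each library (x axis, log2(CPM + 1)). Blue marks SARAWT and red SARATg labels, circles PBS or vehicle and triangles bleomycin or aristolochic acid, and open symbols the 4 libraries that stood farthest from their label. Red and blue symbols overlap in most classes, and skin ILC2 lie to the right of all other skin classes at 70.3 to 169 CPM.

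A list of 71 genes around SARA and endofin was followed in the same fits: TGF-β, activin and BMP receptors, Smads, binding partners, early endosome and ESCRT-0 genes, and other FYVE-domain genes. In the kidney none passed in the main compartment fits, with 68 tested in epithelium, 61 in endothelium and 68 in leukocytes. At most 0.0294% of all genes passed in these fits, so this is no result about the list. Between SARATg and SARAWT vehicle libraries the list's median difference was -0.12 in epithelium, where all genes had -0.07, and -0.03 in leukocytes, where all genes had -0.05. In skin leukocytes none of 66 passed after bleomycin, where 0% of all genes did. In skin stroma 2 of 64 fell and none rose. That is a smaller share than the 4.4% of all stromal genes past the threshold, so it is no result about the list. Tgfbr1, the type I receptor, had 74.2, 61.4 and 52.7 CPM with PBS and 25.9, 23.7 and 32.7 CPM with bleomycin (log2 difference -1.16, SE 0.19, adjusted p 0.0305). Tgfbr2, the type II receptor, had 528, 551 and 479 CPM with PBS and 118, 197 and 245 CPM with bleomycin (-1.46, SE 0.26, adjusted p 0.0325).

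The single SARATg libraries had 45.6 CPM with PBS and 20.5 CPM with bleomycin for Tgfbr1, and 472 and 157 CPM for Tgfbr2. With a library left out the direction stayed, but Tgfbr1 passed only without the library labelled SARAWT PBS 3 (adjusted p 0.0499, otherwise up to 0.129) and Tgfbr2 passed in no such fit (0.0521 to 0.105). Without both SARAWT PBS 1 and 3 the differences were -1.13 (adjusted p 0.207) and -1.54 (adjusted p 0.187). Without the cells of shared barcodes they were -1.13 and -1.12 (adjusted p 0.125 each). Neither passed with named clusters (adjusted p 0.0934 and 0.0967), and with a stricter gate only Tgfbr1 did (0.0441, Tgfbr2 0.0533). Both passed with the replicate block (adjusted p 0.0227 and 0.0163), where 1382 stromal genes passed instead of 476. Both also passed by DESeq2, without the low-count filter, with the feature list as covariate, with doublets kept and with another cell filter. The receptors as a group had a median of -0.72 over 10 tested and the Smads -0.44 over 7, against -0.03 over all genes tested. The median was -0.11 in binding partners, -0.06 in early endosome and ESCRT-0 genes, -0.16 in other FYVE-domain genes and -0.18 over the list. These medians were not tested.

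The genes most like Zfyve9 across 13 kidney classes of SARAWT libraries, by Pearson's r of mean log2(CPM + 1), were Jun (0.925), Nim1k (0.922), Prrg2 (0.912), Gas6 (0.908) and Bri3 (0.891). Zfyve16 had an r of 0.714 with Zfyve9, which was rank 349 among 12025 genes. Without the library labelled SARAWT aristolochic acid 1 the 5 were Gas6 (0.909), Nim1k (0.898), Bri3 (0.891), Akap7 (0.883) and Jun (0.883). For Zfyve16 over 29 classes of both tissues they were Lpcat3 (0.751), Tmem135 (0.739), Dync1h1 (0.737), Tmx2 (0.717) and Hsd17b7 (0.716). Without the libraries that go against their labels, over 27 classes, they were Gm37494 (0.864), Tbc1d32 (0.855), Cox6a1 (0.836), Cpt1a (0.835) and Gtf3c1 (0.830), so none of the first 5 was among them. The classes share libraries and differ in depth, so these values are a description.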

How the data were processed

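Single-cell RNA was measured in 8 skin and 9 kidney libraries (10x Genomics 3′ chemistry, version 3). The deposited files give raw UMI counts for each gene in each called barcode. The authors made them with Cell Ranger on mm10, with no normalization. The submitters' processing notes name version 3.0.2, and the headers name 4.0.0 for 4 skin libraries, 3.1.0 for the other 4 and 3.0.2 for the kidney. Groups were taken from the sample labels. The members, marker lists and gene lists were chosen with earlier results of these data known.

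Every value in the report was derived here. Cells with fewer than 200 genes or over 20% mitochondrial UMIs were dropped, then the cells with the highest scrublet scores (scanpy 1.11.5), at a rate of 0.8% for each 1000 cells. A cell took the class of the marker list (17 in skin, 15 in kidney) with its highest score where at least 3 markers were detected and the lead over the next list was at least 0.05. Differences were tested with edgeR 4.0.16 on summed UMIs (filterByExpr, TMM, quasi-likelihood F test, Benjamini-Hochberg threshold 0.05), with DESeq2 1.42.0 as an alternative. Levels of classes were compared by exact sign-flip permutation tests over libraries on log2(CPM + 1), where at least 6 libraries had both values. The 4 kidney groups shared one fit per compartment.

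Genes named are Zfyve9, Zfyve16, the human entry, up to 3 genes per direction of the pathway list past the threshold with at least 10 CPM, and the 5 genes most like each member. Pdgfrb and the lymphocyte sums were added after values were seen. Same-numbered SARAWT PBS and bleomycin libraries deviated together in each of the 3 pairs (r = 0.222, 0.188 and 0.360 in stroma and 0.280, 0.146 and 0.630 in leukocytes), which was taken as pairing. They also share a feature list, and pairs with the same list but another number had r = -0.0517 and 0.00738 in stroma and 0.375 and 0.253 in leukocytes, so number and list cannot be told apart. Alternatives covered DESeq2, the filter on low counts, the replicate block, the feature list, each library left out, the filter on cells, doublets, shared barcodes, a stricter gate, named clusters and the added CPM. The fits were tested on simulated data. Totals per library set the counting error, since 1 UMI in a class of few cells is many CPM. Further tools were Python 3.11.15, numpy 2.4.6, scipy 1.17.1, pandas 2.3.3, matplotlib 3.10.9, R 4.3.3 and limma 3.58.1.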

Additional observations from a re-analysis of the deposited data

Results flagged for a closer look

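The human ZFYVE9 entry is outside the main measurement of mouse Zfyve9, and was found in lymphocytes of the 4 skin libraries that list it, all labelled SARAWT. It had 829 CPM in the library labelled SARAWT PBS 1, 293 CPM in SARAWT PBS 2, 191 CPM in SARAWT bleomycin 1 and 247 CPM in SARAWT bleomycin 2.

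The edgeR test of whether the SARATg difference of Zfyve9 was the same in every kidney class passed only in fits that leave out libraries set aside for their Zfyve9 level, so these values are a description. It had an adjusted p of 0.00912 without SARAWT aristolochic acid 1 and 2.02e-06 without both libraries labelled aristolochic acid 1, against 0.878 with all libraries. No group had the 4 libraries needed to test for a library far from the others.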

How the results depend on the processing

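The main limits are the 4 libraries set aside after their values were seen, the human entry in 3 more libraries labelled SARAWT, 1 library in 3 of the 4 SARATg groups, and classes of few cells, in which 1 UMI decides a level. Of the main results set against an alternative, 322 kept direction and side of the threshold, 11 turned, 6 newly passed and 3 counts moved. The single calls that had passed, kidney classes for Zfyve16 and the genes Tgfbr1 and Tgfbr2, were counted apart. Of these, 63 stayed past the threshold and 25 lost it. The cause of each change below was not tested, and the settings that leave out both doubted libraries were added after seeing the data.

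For SARATg against SARAWT with vehicle, endothelial Zfyve9 (2.15) was 2.21 and passed with no filter on low counts. With each library left out Zfyve9 ranged from 1.53 to 1.92 in epithelium, 1.72 to 2.72 in endothelium and 2.11 to 2.92 in leukocytes, and Zfyve16 from -0.86 to -0.53, -0.47 to 0.54 and -0.56 to 0.10. Zfyve16 turned in endothelium without SARAWT vehicle 3 (-0.47) and in leukocytes without SARAWT vehicle 2 (0.10). These kidney libraries share only replicate numbers. With the replicate block Zfyve9 was 1.74 (adjusted p 0.00813) in endothelium, 2.14 (adjusted p 0.0472) in leukocytes and 1.55 (adjusted p 0.672) in epithelium, endothelial Zfyve16 turned to -0.42, and 156, 9 and 0 genes passed. For aristolochic acid against vehicle, pair 1 had r = -0.246 in epithelium, the block gave Zfyve9 differences of 0.68 and 0.24, and it changed no call.

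With SARAWT aristolochic acid 1 left out, Zfyve9 turned to 0.075 in epithelium and 1.15 in leukocytes for SARATg against SARAWT after aristolochic acid (ranges over libraries left out -2.75 to 0.075 and -2.0 to 1.15). For aristolochic acid against vehicle it turned to -0.53 and -1.33 (ranges -0.53 to 2.30 and -1.33 to 1.83), and without both libraries numbered 1 to -0.52 and -1.33. The genotype by class test of Zfyve9 had an adjusted p of 0.00912 and 2.02e-06 under these settings, and a range of 0.00912 to 1 over libraries left out. After bleomycin, stromal Zfyve9 passed with no filter on low counts (-3.76, adjusted p 0.0119), ranged from -4.28 to -0.65 in stroma and -5.79 to -0.91 in leukocytes with each library left out, and in leukocytes turned to 0.34 without PBS 1 and 3, as Zfyve16 did to 0.32. The number of skin classes past the threshold for Zfyve16 was 0, 3 with doublets kept and 5 with named clusters, and that of kidney classes was 8, and 4 without the doubted libraries. Counts of genes past the threshold moved by over 1.5 times for SARATg against SARAWT in endothelium (3, and 186 with no filter) and for bleomycin in stroma (476, 1009 by DESeq2, 30 without SARAWT PBS 2, 1 without PBS 1 and 3, and 0 with named clusters, where Tgfbr1 was -1.01 and Tgfbr2 -1.29) and for aristolochic acid against vehicle (0, and without SARAWT vehicle 3, 386 in epithelium and 229 in leukocytes).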
